A study of Mus musculus with 6 samples.

Results

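The genes described here are 41 genes of protein folding in the endoplasmic reticulum (ER) and of the unfolded protein response, read by symbol from a table of read counts for 53670 mouse genes. They are ER chaperones, disulfide isomerases, subunits of the translocon, components of ER-associated degradation, and the sensors, transcription factors and effectors of the stress response. All 41 were in the table, and all 41 passed the filter on low counts that left 15915 genes for testing. RNA came from isolated pancreatic islets, the hormone-secreting cell clusters of the pancreas, of 6-week-old mice. The 3 wild-type (WT) libraries were Paupar +/+ and the 3 knockout (KO) libraries were Paupar -/-, Paupar being a long noncoding RNA gene. How the allele was made, the strain and the sex of the animals are not given in the labels, and the labels name no treatment. Nothing in them says that the libraries of a group came from separate animals, so each p-value refers to the variation among these libraries, part of which may be technical. By the sex-linked transcripts given below, KO replicate 1 did not come from the same animal as KO replicates 2 and 3.

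Secretory proteins enter the ER through the translocon, fold there with the help of chaperones and disulfide isomerases, and are sent back to the cytosol for degradation when folding fails. An excess of unfolded protein activates 3 membrane sensors. ATF6 is cut to release a transcription factor, IRE1 (Ern1) splices the mRNA of the factor XBP1, and PERK (Eif2ak3) phosphorylates eIF2alpha, which lowers translation in general while translation of ATF4 goes up. Islet beta cells make large amounts of proinsulin, and loss of PERK or of wolframin is known to damage them in mice and people.

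Total counts per library ran from 25733194 to 27285009. Paupar had 177, 252 and 111 counts in the WT libraries, replicates 1 to 3, and 4, 0 and 4 in the KO libraries in the same order (log2 fold change -5.98, SE 0.66, edgeR adjusted p = 0.0446). The X-inactivation transcript Xist had 0 to 6 counts in the WT libraries and KO replicate 1, against 1120 and 862 in KO replicates 2 and 3, and the Y-linked gene Ddx3y had 1316 to 1830 counts in the former and 2 and 0 in the latter. Sex-linked transcripts therefore differed within the KO group and between the groups. For some results, values without KO replicates 2 and 3 are given. A result shown without such values is not free of this difference. All 18 islet endocrine markers examined were detected and held 28.3% to 33.9% of the counts. The 25 tested markers of acinar cells, the enzyme-secreting cells around the islets, held 8.79%, 4.86% and 2.96% of the counts in WT replicates 1 to 3 and, in the KO libraries, 5.27%, 3.75% and 2.08%. In bulk tissue, fewer cells of a type and less RNA per cell cannot be told apart.

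Promoters of stress-response genes can carry short elements known from that response. They are shown because the ATF6/XBP1 and PERK/ATF4 branches, compared further on, are named for factors that bind such elements. Genes were assigned to the branches from general knowledge and not by these matches, so the shares by branch are a description and no test. The 250 bases before the gene start were read from RefSeq (build GRCm38.p6) for the 34 members found in its promoter table. Hyou1, Atf6, Derl1, Manf, Sec61a1, Ssr2 and Ppp1r15b are not among them. Both strands were searched for the ER stress element, CCAAT and CCACG with 9 bases of any kind between them, which ATF6 and the factor NF-Y are known to bind. It was present in 0.113% of all 32851 promoters of the same length and in those of 9 members. Of the ATF6/XBP1 genes 8 of 17 had it, of the PERK/ATF4 genes 0 of 6, and of the members in neither branch 1 of 11, the lectin chaperone Canx. In the lines that follow, the coordinates are those of the element, capitals mark its fixed letters, and 10 bases stand on each side.
Hspa5, chr2:34772025-34772043, match on the + strand of the gene: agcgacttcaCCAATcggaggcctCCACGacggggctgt
Hsp90b1, chr10:86705638-86705656, match on the + strand of the gene: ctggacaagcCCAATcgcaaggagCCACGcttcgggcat
Hsp90b1, chr10:86705533-86705551, match on the - strand of the gene: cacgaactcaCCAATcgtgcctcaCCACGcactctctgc
Calr, chr8:84847075-84847093, match on the - strand of the gene: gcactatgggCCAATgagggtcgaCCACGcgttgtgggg
Canx, chr11:50325800-50325818, match on the + strand of the gene: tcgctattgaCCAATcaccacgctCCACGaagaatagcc
Pdia6, chr12:17266491-17266509, match on the + strand of the gene: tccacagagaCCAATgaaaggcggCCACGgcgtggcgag
Dnajc3, chr14:118937827-118937845, match on the + strand of the gene: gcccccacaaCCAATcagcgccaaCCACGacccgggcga
Syvn1, chr19:6046532-6046550, match on the + strand of the gene: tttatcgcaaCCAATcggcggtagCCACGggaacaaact
Derl3, chr10:75893242-75893260, match on the - strand of the gene: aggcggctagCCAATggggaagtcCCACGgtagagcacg
Creld2, chr15:88819520-88819538, match on the - strand of the gene: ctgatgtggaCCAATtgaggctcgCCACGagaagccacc

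Hsp90b1 had the element at 2 places, and the other 8 members at 1. In Hspa5 it lay 65 to 47 bases before the gene start, and in Syvn1 44 to 26 bases before it. The related element, ATTGG and CCACG with 1 base of any kind between them, was in 0.0304% of all promoters and, among the members, in Herpud1 only. The element TGATGNAA, a form of the site that ATF4 is known to share with C/EBP factors, was in 3.45% of all promoters and in those of Herpud1, Chac1 and Asns. These sites are printed in the reading direction of the element, in the same way.
Herpud1, chr8:94386377-94386387, match on the + strand of the gene: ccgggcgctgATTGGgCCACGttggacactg
Herpud1, chr8:94386317-94386324, match on the - strand of the gene: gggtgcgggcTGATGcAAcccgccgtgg
Chac1, chr2:119351049-119351056, match on the - strand of the gene: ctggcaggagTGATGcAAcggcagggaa
Asns, chr6:7693225-7693232, match on the + strand of the gene: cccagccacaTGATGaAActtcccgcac

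The letters TGACGTGG, the core of an element linked to XBP1, were in 0.563% of all promoters and in none of the 34 members. A match is a description of the sequence, and a missing match says only that these letters are not in the window. The whole windows follow for 4 members to which the results return. They are the main chaperone Hspa5, the co-chaperone Dnajb9, Herpud1 with its 2 kinds of element, and the ATF4 target Chac1. They are written 5′ to 3′ on the strand of the gene, with the elements named above in capitals.
Hspa5, chr2:34771840-34772089, + strand: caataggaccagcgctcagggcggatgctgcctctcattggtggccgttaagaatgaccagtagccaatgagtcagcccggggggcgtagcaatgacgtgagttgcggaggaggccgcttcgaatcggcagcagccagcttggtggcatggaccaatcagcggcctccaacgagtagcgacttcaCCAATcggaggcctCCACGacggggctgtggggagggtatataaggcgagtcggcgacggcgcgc
Dnajb9, chr12:44210069-44210318, - strand: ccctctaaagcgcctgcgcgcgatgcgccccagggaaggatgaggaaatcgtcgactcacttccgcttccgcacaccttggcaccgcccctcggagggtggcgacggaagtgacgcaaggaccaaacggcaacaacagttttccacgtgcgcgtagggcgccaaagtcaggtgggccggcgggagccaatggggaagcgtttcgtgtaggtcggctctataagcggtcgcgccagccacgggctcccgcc
Herpud1, chr8:94386179-94386428, + strand: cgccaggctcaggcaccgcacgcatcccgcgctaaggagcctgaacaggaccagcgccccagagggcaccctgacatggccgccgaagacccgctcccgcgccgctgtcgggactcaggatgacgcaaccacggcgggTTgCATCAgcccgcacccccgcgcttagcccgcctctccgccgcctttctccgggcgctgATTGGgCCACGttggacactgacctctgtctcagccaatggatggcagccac
Chac1, chr2:119350992-119351241, + strand: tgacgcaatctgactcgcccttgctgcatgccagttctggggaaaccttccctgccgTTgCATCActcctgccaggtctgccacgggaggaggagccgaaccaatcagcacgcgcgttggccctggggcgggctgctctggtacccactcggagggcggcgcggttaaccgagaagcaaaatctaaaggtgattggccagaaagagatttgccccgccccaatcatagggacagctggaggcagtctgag

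The single comparison, KO against WT, asks how the transcripts of ER folding and of the stress response differ when Paupar is missing. No member passed the test in either direction. Of the 41 log2 fold changes 30 were above 0 and 11 below, against 50.3% above 0 among all tested genes, and their median was 0.11 against 0.0023 for all genes. Values ran from -0.36 for the degradation factor Derl3 to 0.59 for Dnajb9. The ER genes that bring proteins in and fold them made up most of the small positive values, whereas the genes of the PERK/ATF4 branch were centred near 0 and spread widely among the KO libraries. With KO replicate 1 as the only KO library, 36 of the 41 members were above 0, against 49.1% of all genes in that fit. The PERK/ATF4 median then lay above the ATF6/XBP1 median, as given below.

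The test was edgeR's quasi-likelihood test with Benjamini-Hochberg adjustment, called at an adjusted p below 0.05. It called 0 members and, among all genes, 0 higher (0%) and 27 lower (0.170%). At an unadjusted p below 0.05 there were 6 members higher in KO and 0 lower, where 6.99% and 9.38% of all tested genes had such values. The 6 were Dnajb9, Manf, Derl2, Pdia4, Ssr2 and Sec61a1. DESeq2 called 1 member, Dnajb9, and 209 higher genes in all (1.96% of the 10659 genes to which it gave an adjusted p), with 0 members and 4.10% of those genes lower. In 10 members every KO library lay above all WT libraries, and in 0 members below, against 11.3% and 12.1% of all tested genes (23.4% in either direction). That count of 10 was 21 without WT replicate 1 (15.0% of all genes), 16 without KO replicate 3 (16.4%) and 28 with KO replicate 1 as the only KO library (28.0%), and from 10 to 12 without any other library. The count of 0 in the lower direction became 1 without WT replicate 3 (21.3% of all genes), and 2 without KO replicate 1 (17.3%), without KO replicate 2 (15.3%) or with KO replicate 1 alone (27.7%).

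**Figure D1:**
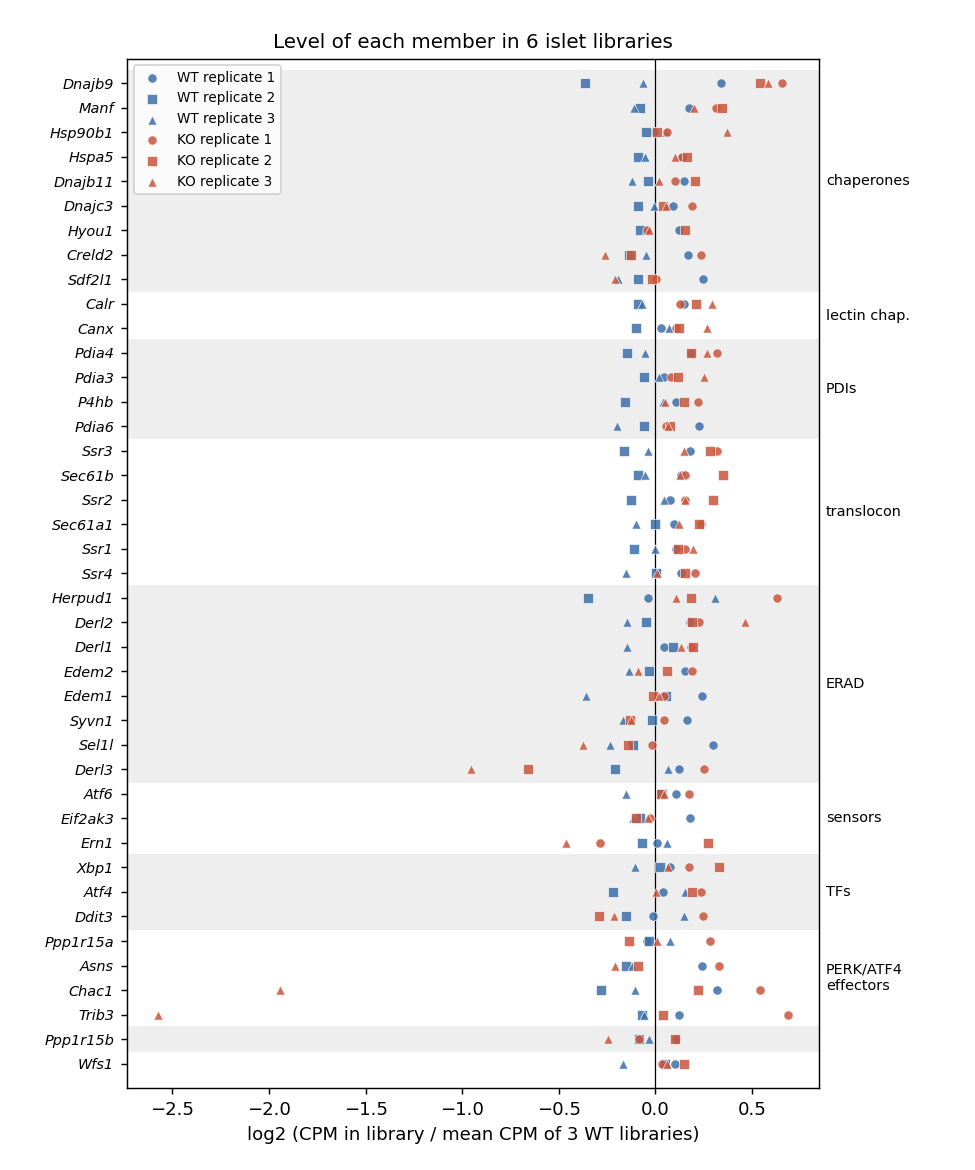
The level (CPM, read counts scaled to the library size) of each of the 41 members in each of the 6 libraries, ordered by role. It is drawn as the log2 ratio to the member's mean CPM over the 3 WT libraries. WT replicates 2 and 3 held the lowest value for 16 and 14 members, and KO replicates 1 and 2 the highest for 18 and 10. Trib3 and Chac1 in KO replicate 3 stand far below the rest.

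**Figure D2:**
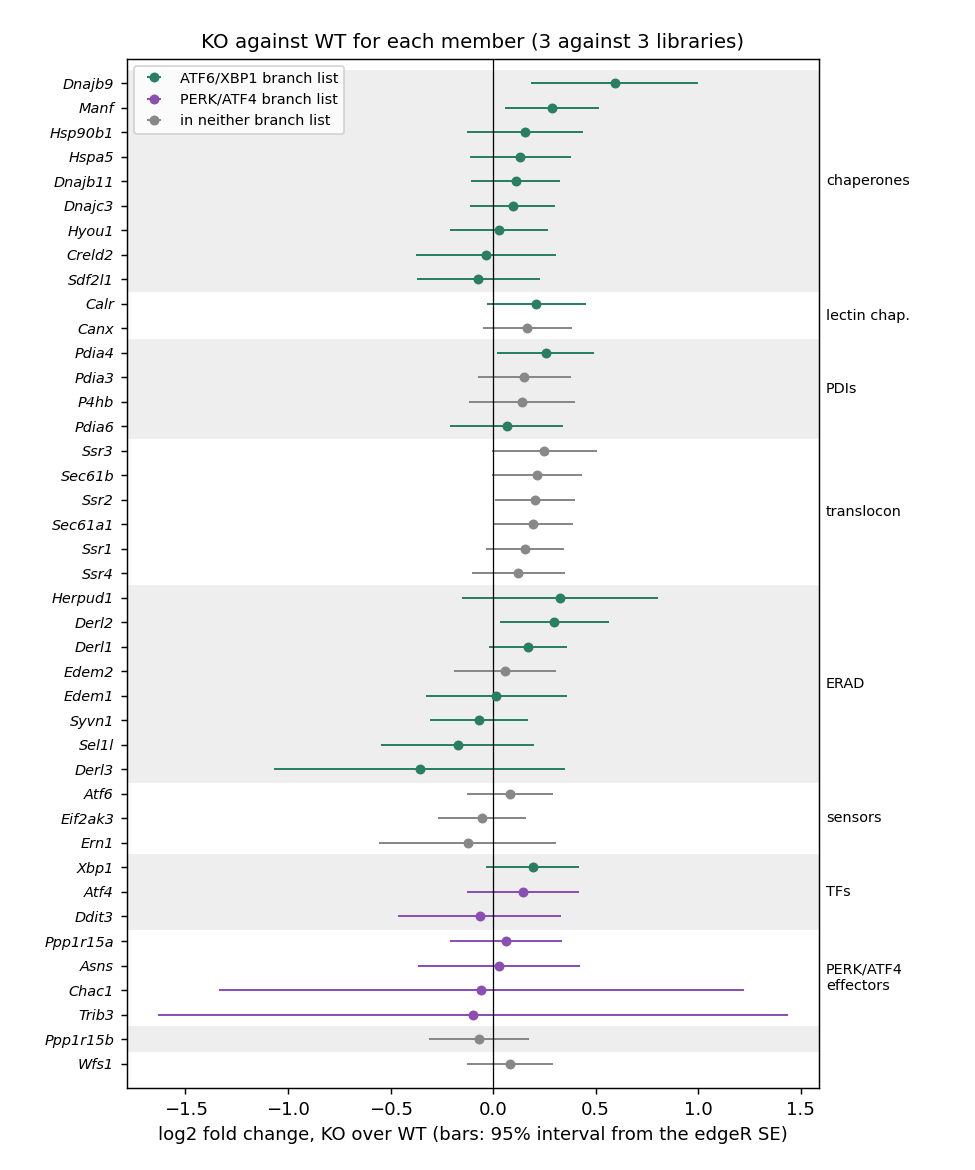
The log2 fold change of KO over WT for each of the 41 members, with its 95% interval from the edgeR fit, grouped by role. Dnajb9 lies farthest to the right (0.59) and Derl3 farthest to the left (-0.36), and the intervals of Trib3 and Chac1 are the widest.

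The 41 members together held 1.36%, 1.24% and 1.30% of the counts in WT replicates 1 to 3 and 1.37% in each of the 3 KO libraries. WT replicate 1 was thus at the KO level, and the groups were separated by a small margin. In the same libraries the insulin genes Ins1 and Ins2 held 18.9%, 21.99% and 21.6% of the counts in WT and 24.4%, 24.5% and 24.3% in KO. Of the 25 acinar markers 24 had a log2 fold change below 0, with a median of -0.51. All 25 overlapped between the groups, and WT replicate 1 was the highest library for all 25. Other sets had positive values too, with none of their genes called. They included 15 of 16 tested transcripts of the mitochondrial genome (median 0.35, 11 with all KO libraries above the WT libraries). Endothelial markers were positive in 7 of 9 cases (median 0.39, 5 so separated), and macrophage markers in 10 of 10 (median 0.27, 0 separated). Of 9 fibroblast and stellate markers 6 were positive (median 0.42, 1 separated). Of 7 duct markers, instead, 6 were negative (median -0.365, 2 separated with KO below). Among all tested genes 11.3% were separated with KO above and 12.1% with KO below. The mitochondrial transcripts held 2.29% to 2.74% of the counts in WT and 2.70% to 2.98% in KO, the endothelial markers 0.0295% to 0.0382% and 0.0395% to 0.0422%, and the macrophage markers 0.0108% to 0.0197% and 0.0127% to 0.0232%. The part of these sets in the members' values was not tested. With the acinar level as a covariate, 37 of the 41 members had a positive fold change and their median was 0.17. The exonic length and GC content of the members (medians of 3248 bp and 49.6%) were close to those of all tested genes (3522 bp and 49.9%).

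Among the 9 luminal chaperones and co-chaperones, 7 had a positive fold change, and the median of the 9 was 0.11. Dnajb9 (ERdj4), a co-chaperone of BiP that also restrains IRE1 and lies on chromosome 12 at 45306884 to 45311055 (mm9, minus strand), had the highest fold change of all members. It stood at 409.5, 251 and 309 CPM in the WT libraries, replicates 1 to 3, and at 508, 471 and 483 CPM in the KO libraries in the same order. All 3 KO libraries were above all WT libraries, and the KO values were the more closely grouped (SD 19.3 against 80.3 CPM, n = 3 each). The log2 fold change was 0.59 (SE 0.17, 95% interval 0.19 to 0.9993), with an adjusted p of 0.194 in edgeR and 0.0141 in DESeq2. Over the alternatives it ran from 0.44 to 0.80, and its adjusted p from 0.0141 to 0.712. In the promoter shown above the letters CCACG stand at 2 places, but none of the longer elements was found. These letters alone were in 28.3% of all promoters of the same length.

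Manf, a secreted ER-stress factor known to protect beta cells in mice, stood at 219, 183 and 179.6 CPM in WT and 241, 246 and 223 CPM in KO. These groups did not overlap, with a log2 fold change of 0.29 (SE 0.097, edgeR adjusted p = 0.233). Hspa5 encodes BiP, the main Hsp70 chaperone of the ER, whose level is a common measure of the stress response (chromosome 2, 34627490 to 34632051, plus strand, mm9). The 6 libraries gave 1679, 1433 and 1473 CPM in WT and 1678, 1714 and 1637 CPM in KO. WT replicate 1 lay within the KO range, and the log2 fold change of 0.13 (SE 0.10, edgeR adjusted p = 0.576) had a 95% interval from -0.11 to 0.38. Hsp90b1 (GRP94) had a log2 fold change of 0.16 (SE 0.12), with KO replicate 3 at 1099 CPM, while the other 5 libraries stood between 819.8 and 884 CPM. The nucleotide exchange factor Hyou1 and the co-chaperones Dnajb11 and Dnajc3 had values of 0.028, 0.11 and 0.096. Only Sdf2l1, which works with Dnajb11, and Creld2 were below 0 among these 9, at -0.071 and -0.036.

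Calr and Canx, the lectin chaperones that hold newly made glycoproteins, were both highest in KO replicate 3. Canx stood at 673, 615 and 692 CPM in WT and 710.0, 719 and 793 CPM in KO, separate groups with a log2 fold change of 0.17 (SE 0.092, edgeR adjusted p = 0.425). Calr overlapped between the groups only through WT replicate 1, at 852 CPM against 840.6 CPM in KO replicate 1, and its log2 fold change was 0.21 (SE 0.10, edgeR adjusted p = 0.365). All 4 disulfide isomerases, which form and rearrange disulfide bonds such as those of proinsulin, had positive values with a median of 0.15. Pdia4 stood at 202, 160.3 and 171 CPM in WT and 221, 202 and 214 CPM in KO. Its groups touched without overlapping, WT replicate 1 lying just under KO replicate 2, and the log2 fold change was 0.26 (SE 0.10, edgeR adjusted p = 0.277). Pdia3, the isomerase that works with the lectin chaperones, had 1188, 1105 and 1166 CPM in WT and 1221, 1250 and 1373 CPM in KO, again without overlap (0.15, SE 0.095, edgeR adjusted p = 0.480). P4hb and Pdia6 overlapped between the groups, with values of 0.14 (SE 0.11) and 0.066 (SE 0.12).

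The 6 members of the translocon and of the translocon-associated complex, through which new chains enter the ER, all had positive values, with a median log2 fold change of 0.20. Sec61a1, the channel itself, stood at 332, 309.7 and 289.5 CPM in WT and 365, 363 and 338 CPM in KO. The groups did not overlap, and the log2 fold change was 0.20 (SE 0.082, edgeR adjusted p = 0.299). Ssr2 stood at 179.9, 156 and 176 CPM in WT and 190.3, 210.1 and 189.9 CPM in KO, which gave the same value of 0.20 (SE 0.083, edgeR adjusted p = 0.291). Ssr1 was also separated, at 315, 271 and 292 CPM in WT and 325, 317 and 334.5 CPM in KO (0.15, SE 0.080, edgeR adjusted p = 0.397). Ssr3, Sec61b and Ssr4 had values of 0.25, 0.21 and 0.12, with overlapping groups in each case.

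The 8 members of ER-associated degradation, which recognise misfolded proteins and move them to the cytosol, had a median of 0.038, with 5 above 0. Derl2, part of the retrotranslocation machinery, stood at 99.5, 85.1 and 79.5 CPM in WT and 103, 100.2 and 122 CPM in KO. Its groups did not overlap, and the log2 fold change was 0.30 (SE 0.11, edgeR adjusted p = 0.269). Its relative Derl1 was separated as well, at 148, 153 and 129 CPM in WT and 163, 164 and 157 CPM in KO (0.17, SE 0.080, edgeR adjusted p = 0.351). Derl3, the third relative, had the lowest fold change of all members and carries an ER stress element. It stood at 20.1, 16.0 and 19.3 CPM in WT and 21.98, 11.7 and 9.53 CPM in KO. KO replicate 1 was thus the highest library and KO replicates 2 and 3 the lowest, and the log2 fold change was -0.36 (SE 0.30, edgeR adjusted p = 0.599). With KO replicate 1 as the only KO library it was 0.25. Herpud1, which recruits the degradation complex, had the second highest fold change among the members. It stood at 238, 192 and 303 CPM in WT and 378, 277 and 263 CPM in KO, with overlapping groups (0.33, SE 0.20, edgeR adjusted p = 0.475). Sel1l and Syvn1, the adaptor and the ubiquitin ligase at the core of the complex, had values of -0.17 (SE 0.16, edgeR adjusted p = 0.633) and -0.068 (SE 0.10). Sel1l stood at 267, 201 and 185 CPM in WT and 215, 197 and 168 CPM in KO, a range set in WT by replicate 1. Edem1 and Edem2, which mark misfolded glycoproteins by trimming mannose, had values of 0.016 and 0.059.

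None of the 3 sensors was separated between the groups. Atf6 stood at 191, 181 and 159.6 CPM in WT and 200.2, 181 and 183 CPM in KO, a log2 fold change of 0.083 (SE 0.089, edgeR adjusted p = 0.687). Eif2ak3 was within 70.6 to 86.4 CPM in all 6 libraries (-0.056, SE 0.091, edgeR adjusted p = 0.801). Ern1 varied more in KO than in WT, at 206, 195 and 213 CPM in WT and 167.5, 247 and 148 CPM in KO, with KO replicate 2 above all WT libraries and the other KO libraries below them (-0.12, SE 0.18, edgeR adjusted p = 0.780). Among the factors downstream, Xbp1 stood at 347.5, 335 and 306 CPM in WT and 372, 413.5 and 344 CPM in KO. Only KO replicate 3 lay inside the WT range, and the log2 fold change was 0.19 (SE 0.096, edgeR adjusted p = 0.377). Gene counts do not separate the spliced from the unspliced form of Xbp1, and the protein changes that activate ATF6 and ATF4 are not seen in RNA. Atf4 stood at 247, 207 and 267 CPM in WT and 283, 274 and 240.5 CPM in KO (0.15, SE 0.12, edgeR adjusted p = 0.580). Ddit3, which encodes the stress factor CHOP, was low in every library, at 11.3 to 13.9 CPM in WT and 10.3 to 14.9 CPM in KO (-0.066, SE 0.17, edgeR adjusted p = 0.881).

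The 4 effectors of the PERK/ATF4 branch had a median of -0.015, and for 2 of them, Chac1 and Trib3, the KO libraries spread more widely than for any other member. Chac1, which degrades glutathione and is a target of ATF4, stood at 28.9, 19.02 and 21.6 CPM in WT and 33.7, 27.0 and 6.03 CPM in KO. Trib3, a pseudokinase induced by ATF4 and CHOP, stood at 5.12, 4.495 and 4.52 CPM in WT and 7.57, 4.85 and 0.791 CPM in KO. KO replicate 3 was the lowest library for both genes, and the next lowest library was 3.16 times as high for Chac1 and 5.68 times as high for Trib3. For Trib3 these levels rest on 137, 121 and 122 reads in WT and on 199, 127 and 21 in KO. Their log2 fold changes were -0.058 (SE 0.54, edgeR adjusted p = 0.972) for Chac1 and -0.098 (SE 0.65, edgeR adjusted p = 0.959) for Trib3, and without KO replicate 3 they were 0.39 and 0.40. Asns, the asparagine synthetase, stood at 129.9, 99.1 and 101 CPM in WT and 138.5, 103 and 95.2 CPM in KO (0.029, SE 0.17). Ppp1r15a (GADD34), the inducible subunit of the eIF2alpha phosphatase, had 31.3 to 33.99 CPM in WT and 29.4 to 39.2 CPM in KO, and its constitutive counterpart Ppp1r15b had 91.3 to 104 CPM and 81.7 to 104 CPM. Wfs1, the ER membrane protein wolframin, stood at 149 to 179 CPM in WT and 171 to 185 CPM in KO (0.082, SE 0.088).

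**Figure D3:**
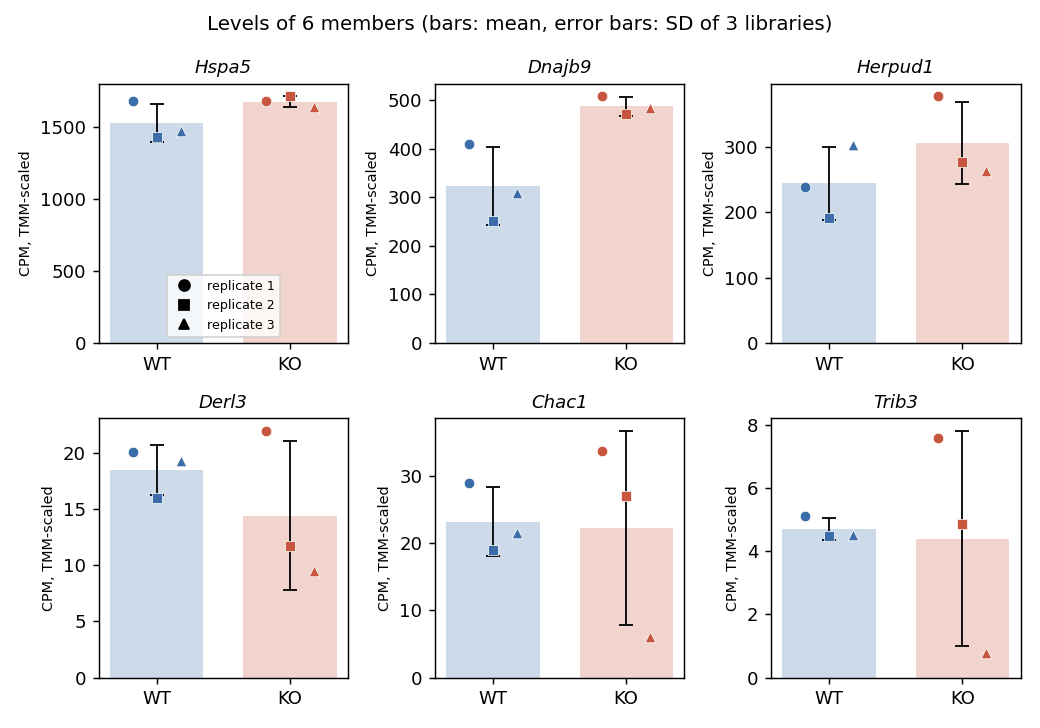
CPM in each library of Hspa5, Dnajb9, Herpud1, Derl3, Chac1 and Trib3, with the mean and SD of each group (n = 3). The Dnajb9 groups are separate, whereas the other 5 overlap, and KO replicate 3 is the lowest library for Derl3, Chac1 and Trib3.

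The 2 branches of the response were compared through the genes assigned to them from general knowledge, 20 to ATF6/XBP1 and 6 to PERK/ATF4 (Atf4, Ddit3, Trib3, Chac1, Asns and Ppp1r15a). In the ATF6/XBP1 branch 15 of 20 fold changes were above 0, the median was 0.12, and 5 members had separate groups with KO above. In the PERK/ATF4 branch 3 of 6 were above 0, the median was -0.015, and 0 were separated. Among all tested genes 11.3% were separated with KO above and 12.1% with KO below, so a count of 0 among 6 genes says little. The median deviation of the ATF6/XBP1 genes from their own means was 0.065, -0.10 and -0.16 in WT replicates 1 to 3 and, in the KO libraries, 0.082, 0.0445 and 0.012, on the log2 scale. That of the PERK/ATF4 genes was 0.14, -0.092 and 0.090 in WT and 0.31, 0.015 and -0.185 in KO. All 6 PERK/ATF4 genes were highest in KO replicate 1, as were 15.4% of all tested genes, and 3 of 6 were lowest in KO replicate 3. The difference between the branches was not tested.

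The spread among libraries differed between the branches. The median within-group SD of log2 CPM was 0.16 in WT and 0.096 in KO for ATF6/XBP1, 0.17 and 0.28 for PERK/ATF4, and 0.16 and 0.14 for all tested genes. KO replicate 1 was the KO library with the sex-linked transcripts of the WT libraries. Against it alone the median of the PERK/ATF4 genes was 0.31 and that of the ATF6/XBP1 genes 0.16, the reverse of their order over all libraries. A sex covariate gave the same values, because it leaves KO replicate 1 as the only KO library set against WT. In that library the summed share of 9 plasma and B cell markers was 0.186% of the counts, against 0.0146% to 0.0596% elsewhere, and 4 of the 8 tested markers were highest there. Jchain stood at 194.6 CPM there and 5.53 to 16.7 CPM in the other libraries, and the immunoglobulin genes Ighm and Igkc at 981 and 602 CPM against at most 200.1 and 135 CPM. The B cell markers Cd79a, Cd79b, Ms4a1 and Pou2af1 were instead highest in WT replicate 1 or 2 (Cd79a 53.8 and 52.3 CPM there, 31.3 CPM in KO replicate 1). The plasma cell receptor Tnfrsf17 was at 0.0761 CPM or less in all 6 libraries, below the 0.110 CPM that 3 counts are worth. The part of these cells in the results was not tested.

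**Figure D4:**
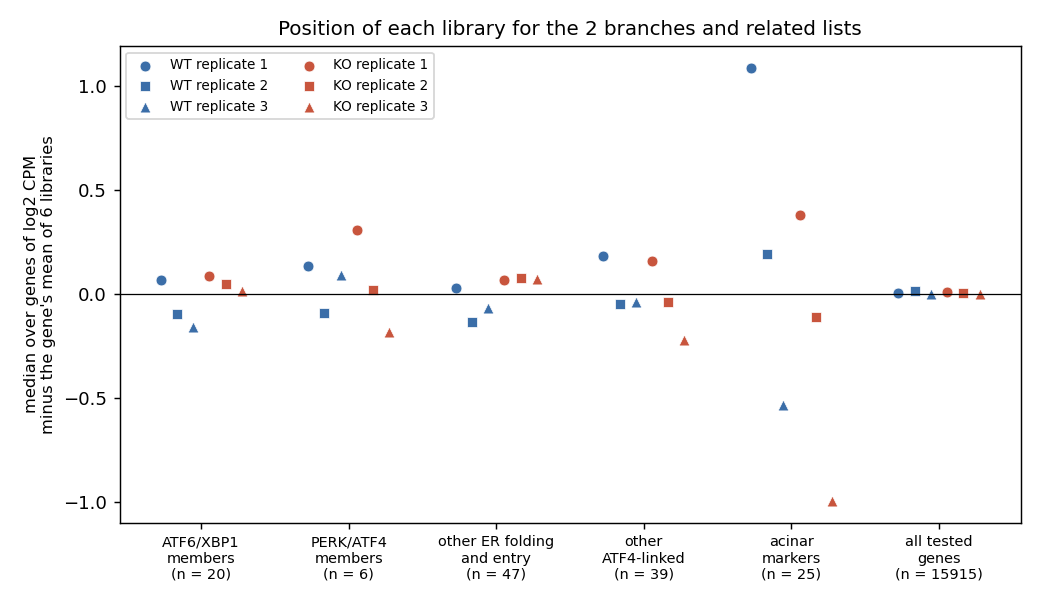
The median, over the genes of a list, of log2 CPM minus the gene's own mean of the 6 libraries, with a point for each library. The lists are the ATF6/XBP1 genes (20) and the PERK/ATF4 genes (6). Beside them stand other ER folding and entry genes (47), other ATF4-linked genes (39 tested), acinar markers (25) and all tested genes. The PERK/ATF4 median goes from 0.31 in KO replicate 1 to -0.185 in KO replicate 3, and the ATF6/XBP1 median stays between 0.012 and 0.082 in the KO libraries.

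The 9 members with an ER stress element in the window had fold changes with a median of 0.096 on the log2 scale, 6 of them above 0, and the 25 without one had a median of 0.11, 18 of them above 0.

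Other genes of the same pathways were read from lists written for this purpose, and none of them was called. Of 47 further genes of ER folding and entry, 37 had positive values with a median of 0.12. In 16 the KO libraries all lay above the WT libraries and in 3 they all lay below, against 11.3% and 12.1% of all tested genes. Those with the lowest p were Srprb, a subunit of the receptor for the signal recognition particle (0.24, SE 0.061, edgeR adjusted p = 0.160), Ostc of the oligosaccharyltransferase (0.28, SE 0.078, edgeR adjusted p = 0.181) and Spcs1 of the signal peptidase (0.28, SE 0.079, edgeR adjusted p = 0.189). Ostc stood at 212, 183 and 203 CPM in WT and 250.4, 240.3 and 237 CPM in KO. In the lower direction the values were -0.30 for Fkbp14, -0.36 for Kdelr3 and -0.11 for Txndc11.

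Of 26 further genes of ER-associated degradation and ATF6-like factors, 21 had positive values, with a median of 0.078. In 9 the groups were separated with KO above and in 0 with KO below, against 11.3% and 12.1% of all tested genes. The ATPase Vcp, which pulls proteins out of the membrane, stood at 184.5, 170.3 and 171 CPM in WT and 207, 211 and 216 CPM in KO (0.27, SE 0.066, edgeR adjusted p = 0.159). Ube2j1 and Selenok followed with 0.30 and 0.22. The lowest p in the other direction belonged to Creb3l2 (-0.11), Atf6b (-0.15) and Creb3l1 (-0.097), which encode membrane-bound transcription factors.

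The list of 41 other ATF4-linked genes, mostly of amino acid supply and tRNA charging, differed in sign, with 10 of 39 tested values above 0 and a median of -0.063. KO replicate 3 was the lowest library for 24 of the 39, against 16.3% of all tested genes. WT replicate 1 was the highest library for 19 and KO replicate 1 for 14, against 15.2% and 15.4% of all tested genes. Eif2ak4, the kinase GCN2 that senses amino acid shortage and phosphorylates eIF2alpha, stood at 26.4, 27.5 and 24.4 CPM in WT and 17.3, 16.8 and 17.0 CPM in KO. Its groups were far apart, with a log2 fold change of -0.62 (SE 0.081) and an adjusted p of 0.0559 in edgeR, just above the threshold. Sesn2 had a value of -0.31 (SE 0.12) and Cars one of -0.33 (SE 0.13), with KO replicate 3 lowest for both. The highest values with the lowest p were 0.15 for Slc3a2, 0.18 for Eif2s1, which encodes eIF2alpha itself, and 1.18 (SE 0.70) for Atf3, whose 3.16 CPM in KO replicate 1 stood above 0.297 to 1.19 CPM elsewhere. KO replicate 3 also had the smallest acinar share of the 6 libraries, and WT replicate 1 the largest. The part of the acinar share in these values was not tested beyond the covariate fit. Under that covariate the median of the 6 PERK/ATF4 genes was 0.14.

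Levels were compared between genes as CPM per kb of exonic sequence, averaged over the 3 WT libraries. All annotated exons of a gene were merged for its length, for example 8049 bp for Derl2. This length can exceed that of the transcript present, so the order need not be that of transcript numbers. Hspa5 was the highest at 435 ± 37.6 CPM per kb (SD, n = 3), followed by P4hb at 403 ± 37.4, Pdia3 at 367 ± 13.7, Calr at 267 ± 25.01 and Hsp90b1 at 211 ± 7.95. Dnajb9, the member with the highest fold change, was at rank 6 with 173 ± 43.0. At the other end stood Ddit3 at 7.32 ± 0.76 and Trib3 at 2.22 ± 0.17, and the highest and lowest level lay 196.2-fold apart. In all, 13 members reached 100 CPM per kb. Of the 40 pairs of neighbours in this order, 35 had overlapping WT ranges, so that only the steps from Pdia3 to Calr, Calr to Hsp90b1, Derl3 to Ppp1r15a, Derl2 to Ddit3 and Ddit3 to Trib3 were larger than the spread between libraries. By the KO means Dnajb9 was at rank 5 in place of 6, and Derl3 at rank 39 in place of 37. Atf4 stood at 139 ± 17.9 CPM per kb, and its target Asns at rank 25 with 40.3 ± 6.27.

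**Figure D5:**
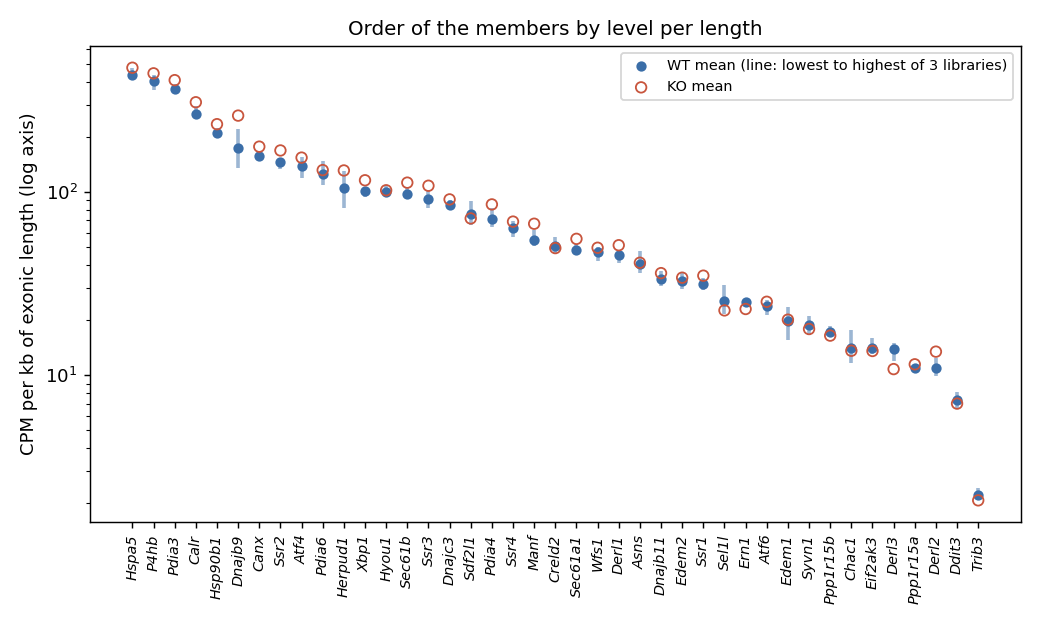
WT level of each of the 41 members in CPM per kb of exonic sequence on a log axis, as the mean with the lowest and highest library, beside the KO mean. The order runs from Hspa5 (435) to Trib3 (2.22), and most neighbours overlap.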

How the data were processed

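Islets were isolated with collagenase and sequenced from TruSeq RNA libraries, per the labels' protocols. Build mm9 and the tools HISAT2 2.1.0, HTSeq, CASAVA 1.8.2 and DESeq2 are named in the submitters' processing notes. No annotation or strand setting is stated there, so reads of overlapping or near-identical genes cannot be told apart. The deposited table holds raw counts per gene, not normalized by the authors, and 0 of its columns were left over after matching names to samples. Of its gene names, 24 had been turned into dates and were not examined.

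Counts were analysed with R 4.3.3 and edgeR 4.0.16: filterByExpr, TMM scaling, the quasi-likelihood F-test on genotype in all 6 libraries, and Benjamini-Hochberg adjustment over 15915 genes, with calls at an adjusted p below 0.05. Levels are TMM-scaled CPM, and deviations and SDs on the log2 scale use a pseudocount of 0.5. SE is the log2 fold change divided by the square root of F, and 95% intervals come from it. A count of 0 allows up to 3 counts, worth 0.110 to 0.117 CPM, which covers counting error only. Exonic length, GC content and mm9 positions came from GENCODE vM1 and promoters from RefSeq (GRCm38.p6). The alternatives were DESeq2 1.42.0 and its size factors, limma-voom (limma 3.58.1), library sizes without acinar, insulin and glucagon genes, 2 other filters, a replicate block, acinar and sex covariates, KO replicate 1 alone, length and GC offsets, a threshold of 0.1, and the omission of each library in turn. The script was tested on simulated data. The plots used matplotlib 3.10.9 (Python 3.11.15).

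The members, the gene lists and the branches were chosen with earlier results of these data known, and 3 counts (of positive values and of separated groups in each direction) were put through the alternatives after seeing the data. All members are named by role, with full statistics for the 3 highest and 3 lowest fold changes, the members whose groups do not overlap, the sensors and the transcription factors. Of the other lists, up to 3 genes with the lowest p in each direction are named.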

Additional observations from a re-analysis of the deposited data

How the results depend on the processing

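No member was called under 16 of the 17 alternatives, and DESeq2 called 1, Dnajb9. The count over all genes, 27 lower and 0 higher, depended on the method. It was 437 lower and 209 higher in DESeq2, 125 and 7 at an adjusted p below 0.1, and 0 lower in limma-voom, with the acinar covariate, with the sex covariate and with length and GC offsets. With KO replicate 1 alone it was 0 lower and 1 higher, and without each library in turn from 0 to 80 lower and from 0 to 9 higher. Correlations between same-numbered WT and KO libraries were 0.18, 0.039 and 0.053, and those between differently numbered ones ran from -0.14 to 0.064. These values do not settle whether the replicate numbers pair the samples. With the replicate block 0 genes were called lower, 0 members were called, and the members' median was 0.11. Positive members numbered 27 to 37 of 41 under every alternative. Those higher in every KO library numbered 10, 28 with KO replicate 1 alone (28.0% of all genes), and 10 to 21 without each library (14.9% to 19.5%). Those lower in every KO library numbered 0, 2 with KO replicate 1 alone (27.7% of all genes), and 0 to 2 without each library (15.3% to 21.3%). The PERK/ATF4 median of -0.015 ran from -0.20 to 0.17 without each library, and it became 0.31 with KO replicate 1 alone. The sex covariate gave the same value and is not a second check. It leaves KO replicate 1 as the only KO library set against WT. The causes were not tested.

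Of 697 member values 51 changed sign, and 24 members never did. With the acinar covariate they were Sdf2l1 0.069, Eif2ak3 0.011, Trib3 0.10, Sel1l 0.013, Syvn1 0.030, Creld2 0.091 and Chac1 0.22. With the sex covariate they were Sdf2l1 0.0014, Hyou1 -0.044, Ddit3 0.25, Trib3 0.68, Syvn1 0.045, Derl3 0.25, Creld2 0.23 and Chac1 0.54. The fit with KO replicate 1 alone is in effect the same comparison. It gave Sdf2l1 0.0023, Hyou1 -0.044, Ddit3 0.25, Trib3 0.68, Syvn1 0.046, Derl3 0.25, Creld2 0.23 and Chac1 0.54. Length and GC offsets gave Ern1 0.0035, Eif2ak3 0.00074, Syvn1 0.097 and Asns -0.0035. Without each library in turn, the ranges that crossed 0 were -0.015 to 0.20 for Pdia6, -0.15 to 0.077 for Sdf2l1, -0.038 to 0.10 for Hyou1, -0.25 to 0.034 for Ddit3, -0.37 to 0.020 for Ern1, -0.10 to 0.048 for Eif2ak3, -0.74 to 0.40 for Trib3 and -0.13 to 0.16 for Edem1. They were -0.011 to 0.15 for Edem2, -0.27 to 0.0097 for Sel1l, -0.135 to 0.029 for Syvn1, -0.19 to 0.065 for Creld2, -0.061 to 0.15 for Ppp1r15a, -0.16 to 0.013 for Ppp1r15b, -0.49 to 0.39 for Chac1 and -0.15 to 0.17 for Asns.

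With 3 libraries a group the intervals stay wide. That of Hspa5 spans -0.11 to 0.38, and a p that misses the threshold does not show that the groups were alike. The lowest count of any member in any library was 21, for Trib3 in KO replicate 3.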
